A study of Mus musculus with 8 samples.

Results

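The genes described here are 4 members of the Zic family, Zic1, Zic2, Zic4 and Zic5, taken by symbol from a table of 19583 entries, and all 4 were found. Statements on Zic genes below cover these 4 and no other Zic gene. Their RNA was measured by RNA sequencing of whole olfactory bulbs at postnatal day 30 in 8 libraries. The double mutant group, with 4 libraries, carried hGFAP-Cre with Sp8 Flox/Flox and Sp9 Flox/Flox, and the control group held 4 libraries from wild type littermates. All came from a mixed background of the C57BL/6J, 129S6 and CD1 strains. In hGFAP-Cre mice the promoter of the human GFAP gene drives Cre recombinase in radial glia, so that the floxed parts of Sp8 and Sp9 are lost in these cells and their descendants and not in cells of other origin. Cre and the floxed alleles are named for the double mutants only, so their effects and the loss of both factors cannot be told apart. Libraries also carry letters, 2 libraries to a letter: A and B are double mutant, C and D wild type. Whether libraries of a letter share an animal is not stated, so the p-values rest on a spread between libraries that may be technical.

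Zic proteins are transcription factors with a block of C2H2 zinc fingers that resembles that of the Gli factors, the effectors of Hedgehog signalling. They are known from the development of the cerebellum, the forebrain midline and the neural crest. In the olfactory bulb, which receives new GABA-releasing interneurons from progenitors along the ventricle, Zic proteins mark interneurons that arise from medial and septal progenitors. They are tied there to calretinin periglomerular cells and hold back the dopaminergic fate. Zic genes are also expressed outside the interneurons, for example in the meninges.

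The 4 genes sit in the genome as divergent pairs. Zic1 (chromosome 9, 91358058 to 91365810, minus strand) and Zic4 (chromosome 9, 91362413 to 91389348, plus strand) are neighbours. Their RefSeq start sites used here lie 3204 bases apart, counted to a start further inside Zic4. The outermost RefSeq start of Zic4, at 91365631, lies within the span of Zic1. Zic5 (chromosome 14, 122456795 to 122465677, minus strand) and Zic2 (chromosome 14, 122475435 to 122479852, plus strand) are also neighbours. Their outermost RefSeq starts lie 9726 bases apart, so the distances of the pairs are not like measures. Gene spans are those of GENCODE M21 on GRCm38, counted from 1, and all 4 are protein-coding. Exons of Zic1 and Zic4 overlap by 60 bases on opposite strands, and without a stated strand setting reads from that stretch cannot be assigned to either gene.

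The 250 bases before the RefSeq start are shown for Zic1, Zic4 and Zic5, since Sp family proteins are known to bind GC boxes. The reference used held no such sequence for Zic2, so the windows of Zic5 and Zic2 cannot be compared. The sequences are from RefSeq on GRCm38.p6, written 5′ to 3′ on the strand of the gene, and capitals mark the GC box GGGCGG on either strand. The windows are chr9:91365769-91366018 on the minus strand for Zic1, chr9:91368722-91368971 on the plus strand for Zic4 and chr14:122465659-122465908 on the minus strand for Zic5.
Zic1: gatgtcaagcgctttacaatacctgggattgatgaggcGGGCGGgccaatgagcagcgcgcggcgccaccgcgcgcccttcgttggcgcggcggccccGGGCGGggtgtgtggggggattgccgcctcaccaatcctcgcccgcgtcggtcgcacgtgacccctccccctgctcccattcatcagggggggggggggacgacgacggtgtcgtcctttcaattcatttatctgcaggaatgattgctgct
Zic4: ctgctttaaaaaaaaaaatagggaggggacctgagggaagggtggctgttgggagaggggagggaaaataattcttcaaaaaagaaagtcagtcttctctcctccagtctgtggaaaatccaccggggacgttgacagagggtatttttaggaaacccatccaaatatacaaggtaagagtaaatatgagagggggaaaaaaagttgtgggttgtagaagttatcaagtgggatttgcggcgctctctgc
Zic5: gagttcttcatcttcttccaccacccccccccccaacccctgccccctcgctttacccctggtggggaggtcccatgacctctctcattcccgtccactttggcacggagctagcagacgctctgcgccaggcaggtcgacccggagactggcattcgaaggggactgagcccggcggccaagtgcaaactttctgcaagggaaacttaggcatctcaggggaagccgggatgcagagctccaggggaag
The Zic1 window holds 2 GC boxes, which begin 212 and 152 bases before the start, and those of Zic4 and Zic5 hold 0. Zic4 has 12 annotated transcripts, and its outermost RefSeq start, at 91365631, lies upstream of the window shown. The Zic4 window thus precedes a start further inside the gene, and its count does not cover other Zic4 starts. The Zic1 window lies within the annotated span of Zic4. Of 32851 windows of this length in the RefSeq table, 32.7% hold at least 1 GC box. The Zic1 window has a GC content of 66.0% with 27 CpG, that of Zic5 62.4% with 11 CpG and that of Zic4 44.4% with 4 CpG, where the median window has 52.4% and 6 CpG. The word CCTGCTG, which belongs to the known Zic binding motif, or its reverse complement, was found in 0 of these 3 windows and in 8.4% of all. A match is a description of the letters and not a measured binding site, and its relation to the changes was not tested.

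The targeted genes were lower in the libraries labelled double mutant. Sp8 measured 6.15 to 8.06 FPKM in the double mutants and 29.34 to 31.57 FPKM in the wild type, and Sp9 ranged from 6.24 to 7.27 FPKM and from 23.15 to 25.3 FPKM. FPKM is a fragment count corrected for transcript length and for the depth of the library. Depth was estimated at 11888669 to 19040807 fragments per library. The libraries of letter B stood apart in Xist, the X-inactivation RNA of females, with 0.04 to 0.05 FPKM against 76.85 to 115.42 FPKM in the other 6, so members whose values differ between letters are also given without letter B.

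In FPKM, Zic1 was the highest of the 4 genes in the wild-type bulb, followed by Zic2, whose mean was 9.38 times that of Zic5. Zic5 and Zic4 were low and their ranges overlapped. In the double mutants Zic1 fell to 55.5% of its wild-type mean, Zic2 to 89.5% and Zic4 to 79.8%, and Zic5 stood at 122.7% without passing the test. Of the 4 members, 3 were thus called, all lower, at a limma adjusted p below 0.05 over 14349 tested genes, where 65.3% of all tested genes were called in either direction and 36.5% were called lower. The share of members called in either direction is near the background, and with 4 members the share called lower is too coarse to set against it. The count was 2 with the letter as a random block or on the means of the letters, where Zic4 no longer passed, 2 under quantile normalization, where Zic2 no longer passed, and 2 to 4 when a library or a letter was left out. Under the higher minimum of 2 FPKM, 2 of 3 tested members were called, and under upper quartile and trimmed mean scaling the 3 called members were Zic1 and Zic2, lower, and Zic5, higher. In whole bulbs, fewer cells of a type and less RNA per cell cannot be told apart.

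**Figure D1:**
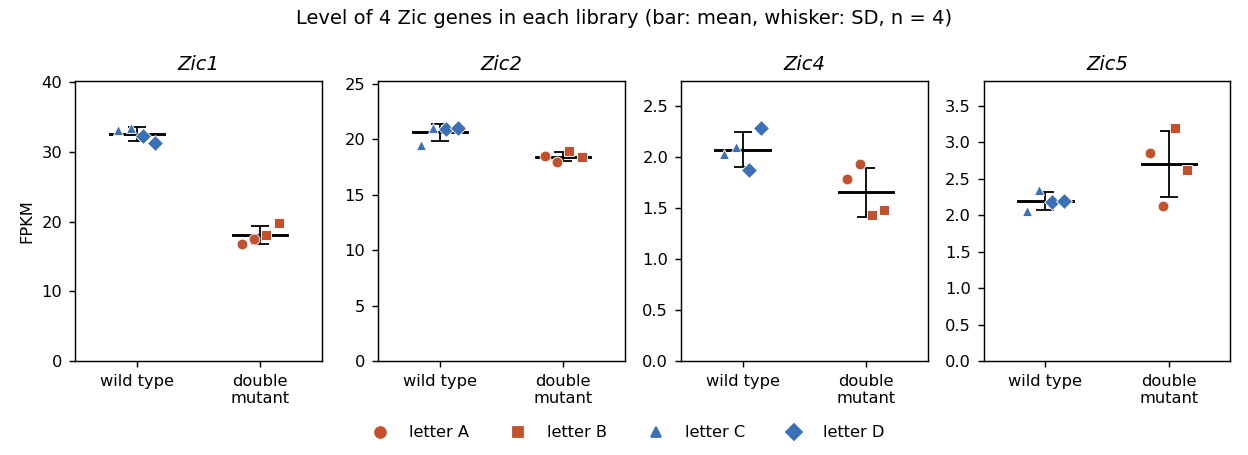
Level in FPKM (vertical axes, from 0) of Zic1, Zic2, Zic4 and Zic5 in the 4 wild-type and 4 double mutant libraries, with the mean (bar) and SD (whisker), and with symbols by library letter. Zic1 sits between 16.84 and 19.83 FPKM in the double mutants and between 31.3 and 33.49 FPKM in the wild type, while the groups of Zic4 and Zic5 overlap.

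Zic1, a factor of cerebellar granule cell and forebrain development, changed most. Double mutant replicates 1 to 4 measured 16.84, 17.54, 18.12 and 19.83 FPKM, and wild-type replicates 1 to 4 measured 33.2, 33.49, 32.36 and 31.3 FPKM. Every double mutant library lay far below every wild-type library. Groups without overlap, in either direction and by any distance, were found for 59.1% of all tested genes. The means were 18.08 ± 1.27 and 32.59 ± 0.98 FPKM (SD, n = 4), and the change in log2(FPKM + 0.5), called the log2 fold change here, was -0.83 ± 0.05 (SE, limma adjusted p = 1.77e-07). The exact permutation test, two-sided over 70 assignments, gave p = 0.0286, which is the lowest it can reach with groups of 4. Without letter B the change was -0.90. Only 3.2% of the tested genes had a more negative change. The gene was read deeply, with about 760 to 1822 fragments per library, for a counting error of 2.3% to 3.6%.

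Zic2, the factor that directs retinal axons to the same side of the brain and patterns the forebrain midline, changed little. The double mutant libraries measured 18.47, 17.97, 18.9 and 18.39 FPKM, and the wild-type libraries 19.46, 21.02, 20.9 and 21.03 FPKM. The groups did not overlap, but the gap between the highest double mutant and the lowest wild-type library was small, and wild-type replicate 1 stood below the other 3. The log2 fold change was -0.16 ± 0.04 (SE, n = 4 per group, limma adjusted p = 0.00377, exact permutation p = 0.0286), and -0.17 without letter B. It was -0.07 under quantile normalization, where it no longer passed (limma adjusted p = 0.0754), and -0.08 under upper quartile scaling, where it did (limma adjusted p = 0.042). The counting error of 3.3% to 4.1%, from about 590 to 942 fragments, was as large as the spread of the wild-type libraries, 3.7% of their mean.

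Zic4, the divergent neighbour of Zic1, was low in both groups. The double mutant libraries measured 1.79, 1.93, 1.43 and 1.48 FPKM, and the wild-type libraries 2.03, 2.1, 1.88 and 2.29 FPKM. Double mutant replicate 2 lay above wild-type replicate 3, so the groups overlapped. The log2 fold change was -0.26 ± 0.09 (SE, n = 4 per group, limma adjusted p = 0.0318), with an exact permutation p of 0.0571. The lower values came from letter B, at 1.43 to 1.48 FPKM against 1.79 to 1.93 FPKM for letter A. Without letter B the change was -0.13 and did not pass (limma adjusted p = 0.277), and without letter A it was -0.40 and passed (limma adjusted p = 0.00739). The call was also lost when any of 5 single libraries was left out (double mutant replicate 3 or 4, or wild-type replicate 1, 2 or 4), with limma adjusted p from 0.0537 to 0.0853. It was lost as well with the letter as a random block (limma adjusted p = 0.0558), on the means of the letters (0.108), and under upper quartile (0.0959) and trimmed mean scaling (0.0667), while quantile normalization gave a larger change of -0.42 (limma adjusted p = 0.00211). Zic4 rested on about 106 to 166 fragments per library, a counting error of 7.8% to 9.7%.

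Zic5, a factor of neural crest and neural tube development and the divergent neighbour of Zic2, was the member with a higher mean in the double mutants. The double mutant libraries measured 2.85, 2.12, 3.2 and 2.62 FPKM, and the wild-type libraries 2.06, 2.35, 2.18 and 2.19 FPKM. Double mutant replicates 1, 3 and 4 lay above all wild-type libraries, while replicate 2 lay among them. The log2 fold change of 0.23 ± 0.10 (SE, n = 4 per group, 95% interval 0.01 to 0.46) did not pass over all genes (limma adjusted p = 0.061, exact permutation p = 0.1143). Without double mutant replicate 2 it was 0.33 and passed (limma adjusted p = 0.00658), and it passed under upper quartile scaling (0.30, limma adjusted p = 0.023) and trimmed mean scaling (0.27, limma adjusted p = 0.0319). Under quantile normalization it was 0.10 and did not pass (limma adjusted p = 0.437). Without letter B it was 0.14 (limma adjusted p = 0.322), and without letter A it was 0.33 and passed (limma adjusted p = 0.0167). With about 36 to 79 fragments per library, the counting error of 11.3% to 16.7% was near the spread of the double mutant libraries, 16.7% of their mean.

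**Figure D2:**
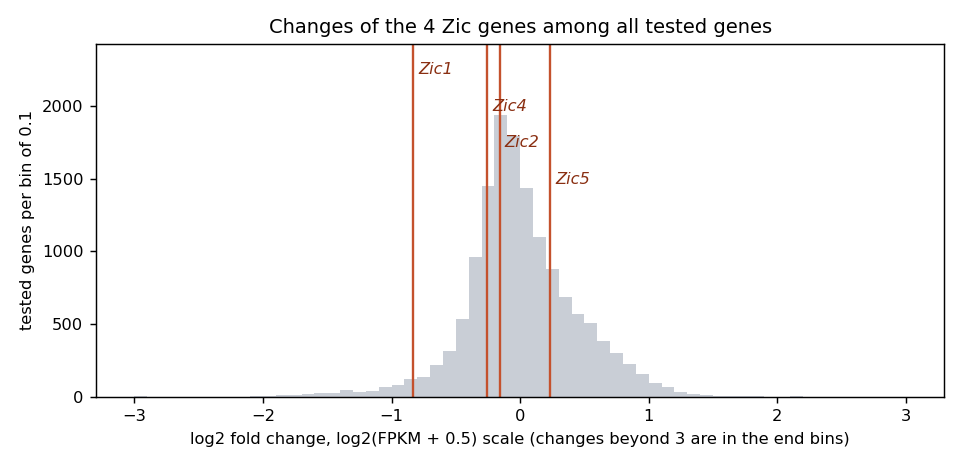
Number of tested genes (vertical axis) by log2 fold change of double mutant over wild type (horizontal axis, bins of 0.1), with a line at each Zic gene. Zic1 at -0.83 lies in the lower tail of the distribution, while Zic4, Zic2 and Zic5 at -0.26, -0.16 and 0.23 lie in its body.

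The order of the levels differed between the groups for the more abundant pair. FPKM values are scaled to transcript length, and the lengths used are not given, so orders and shares between genes depend on them. Zic4 had about 106 to 166 fragments per library and Zic5 about 36 to 79, so their order in FPKM rests on those lengths. In the wild type Zic1 stood above Zic2 in 4 of 4 libraries, with means of 32.59 and 20.6 FPKM and ranges apart. In the double mutants the means were 18.08 and 18.43 FPKM, the ranges overlapped, and Zic2 was the higher of these genes in 3 of 4 libraries. At the lower end, Zic5 and Zic4 did not differ beyond their spread in the wild type, at 2.2 ± 0.12 and 2.08 ± 0.17 FPKM (SD, n = 4), while in the double mutants Zic5 at 2.7 ± 0.45 FPKM stood above Zic4 at 1.66 ± 0.24 FPKM in 4 of 4 libraries. The summed level of the 4 genes was 40.9 ± 1.3 FPKM in the double mutants and 57.5 ± 1.0 FPKM in the wild type. Zic1 made up 44.2% ± 2.0 of that sum in the double mutants and 56.7% ± 1.4 in the wild type, Zic2 45.1% ± 1.2 and 35.9% ± 1.2, Zic5 6.6% ± 1.0 and 3.8% ± 0.1, and Zic4 4.1% ± 0.7 and 3.6% ± 0.3.

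Whether members changed by different amounts was tested on the log2 ratio of each pair within each library, for all 6 pairs. The ratio of Zic1 to Zic2 was -0.13, -0.03, -0.06 and 0.11 in double mutant replicates 1 to 4 and 0.76, 0.66, 0.62 and 0.56 in the wild-type replicates. The groups stood apart, and the ratio was lower by 0.68 log2 units (change -0.68 ± 0.06, SE, n = 4 per group, exact permutation p = 0.0286, adjusted over the 6 pairs 0.0429). Zic1 also fell relative to its divergent neighbour Zic4, with ratios of 2.92, 2.89, 3.27 and 3.36 in the double mutants and 3.73, 3.71, 3.79 and 3.51 in the wild type (change -0.57 ± 0.13, exact permutation p = 0.0286, adjusted 0.0429). The size of that difference depended on the letter, at -0.37 without letter A and -0.78 without letter B. Relative to Zic5, Zic1 was lower by 1.07 log2 units (change -1.07 ± 0.12, exact permutation p = 0.0286, adjusted 0.0429).

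In the other divergent pair, Zic2 fell relative to Zic5, although the change of Zic5 itself did not pass. The ratio of Zic2 to Zic5 was 2.5, 2.82, 2.39 and 2.6 in the double mutants and 2.96, 2.91, 3.0 and 3.0 in the wild type, and all double mutant values lay below all wild-type values (change -0.39 ± 0.09, exact permutation p = 0.0286, adjusted 0.0429). The change in the ratio of Zic2 to Zic4 was 0.11 ± 0.10 and did not pass (exact permutation p = 0.3429), with values from 2.93 to 3.33 in the double mutants and 2.95 to 3.17 in the wild type. It was 0.26 without letter A and turned to -0.05 without letter B. The change of Zic4 to Zic5 was -0.50 ± 0.18 and did not pass either (exact permutation p = 0.0857, adjusted 0.1029), with -0.73 without letter A and -0.26 without letter B. Of the 6 pairs, 4 thus differed in their change at an adjusted p below 0.05, among them all 3 pairs with Zic1 and both divergent pairs. These 4 all sit at the lowest p of the exact test, so their adjusted value of 0.0429 rests on how many pairs reach it. The pairs share members and are not separate results. Libraries of a letter were counted as separate, and no test on letter means was run for the pairs. The change of Zic1 to Zic4 was -0.37 without letter A and -0.78 without letter B.

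**Figure D3:**
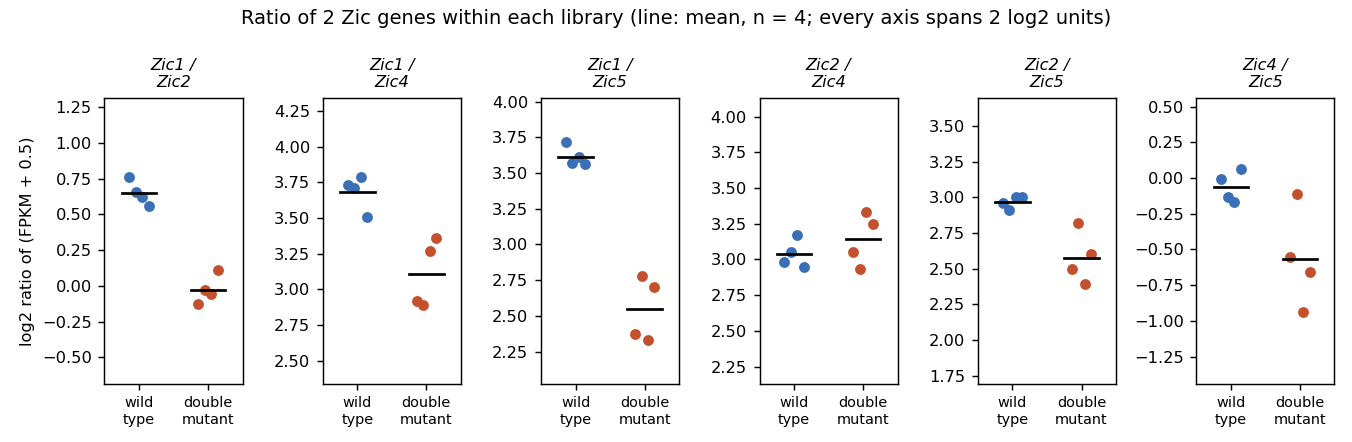
Log2 ratio of (FPKM + 0.5) of 2 Zic genes within each library (vertical axes, each spanning 2 log2 units) for the 6 pairs, with a line at the mean of the 4 libraries of a group. The groups stand apart for the 3 pairs with Zic1 and for Zic2 to Zic5, and overlap for Zic2 to Zic4 and Zic4 to Zic5.

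The genes around both loci did not share 1 direction. Of all tested genes, 65.3% were called in either direction, 28.8% higher and 36.5% lower. On chromosome 9 the nearest genes of the table lie far from Zic1 and Zic4. Plscr1, a phospholipid scramblase gene, 860.8 kb away on the side of Zic4, rose from 1.66 ± 0.11 to 3.18 ± 0.05 FPKM (SD, n = 4), and Plscr5, 797.2 kb away, was listed at or near 0 in every library. On the other side Tbc1d2b at 1087.3 kb and the metalloprotease gene Adamts7 at 1158.0 kb fell. Their log2 fold changes were -0.14 and -0.51 (limma adjusted p = 0.0355 and 0.00167). On chromosome 14 the neighbours of Zic5 and Zic2 lie closer. Pcca, a subunit gene of propionyl-CoA carboxylase and 4.0 kb from Zic2, rose by 0.24, and Ggact, 410.5 kb away, rose by 0.46. On the side of Zic5, the long noncoding RNA gene Gm5089 at 8.0 kb rose by 0.69 ± 0.23 (SE, limma adjusted p = 0.0247). Its wild-type values spread from 0.7 to 2.29 FPKM. The mitochondrial enzyme gene Clybl at 56.9 kb rose by 0.25 ± 0.10 (SE, limma adjusted p = 0.0457), and its groups overlapped. The long noncoding RNA gene 2610035F20Rik, which overlaps the interval, measured 0.48 ± 0.18 and 0.42 ± 0.06 FPKM and was under the minimum for the test.

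The Gli and Glis genes, the closest zinc finger relatives of the Zic genes, did not follow Zic1. All 5 tested genes of the 6 listed rose, with a median log2 fold change of 0.58, against -0.21 for the 4 Zic genes and -0.04 for all tested genes, and against a background of 28.8% of tested genes called higher. Gli3, which acts mainly as a repressor of Hedgehog targets, went from 0.75 ± 0.05 to 1.46 ± 0.21 FPKM (SD, n = 4), and Gli2, the main activator, from 0.75 ± 0.06 to 1.29 ± 0.08 FPKM. Gli1, itself a target of the pathway, rose by 0.58, Glis3 by 0.72 and Glis2 by 0.18 on the log2 scale. The groups of Glis2 overlapped (limma adjusted p = 0.0423). Gli1 and Glis3 were low, at 0.93 and 0.51 FPKM in the wild type. Under quantile normalization Gli1, Gli2, Gli3 and Glis3 rose by less, 0.40, 0.34, 0.46 and 0.52, and kept their calls. Glis1 measured 0.14 ± 0.05 and 0.25 ± 0.07 FPKM and was not tested.

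Of 13 genes reported as partners or targets of Zic proteins, 11 were in the table and 9 were tested. Among these 7 rose, 1 fell and 1 did not pass, with a median of 0.74, where 28.8% of all tested genes were called higher and 36.5% lower. Mdfi, whose protein binds Zic factors and keeps them out of the nucleus, and its relative Mdfic rose by 1.14 and 0.74. Ccnd1, the cyclin of entry into the cell cycle, went from 8.82 ± 0.61 to 16.07 ± 0.73 FPKM (SD, n = 4). Apoe, the lipid carrier gene of astrocytes and microglia, went from 3475 ± 96 to 5710 ± 482 FPKM. It rose by 0.79 under upper quartile scaling and by 0.76 under trimmed mean scaling. Under quantile normalization its difference was 0 and did not pass. That method gives equal ranks the same value, so a gene this abundant can lose its difference there. Ephb1, the guidance receptor gene that Zic2 switches on in retinal ganglion cells, rose by 0.30, Tcf7l2, a factor of Wnt signalling, by 0.93, and Foxd3, a neural crest factor, by 1.08. The calretinin gene Calb2 was the member that fell, from 319 ± 5 to 194 ± 3 FPKM (log2 fold change -0.72 ± 0.02, SE, limma adjusted p = 5.6e-09). The dopamine synthesis gene Th measured 86.9 ± 5.9 FPKM in the wild type and 83.5 ± 8.8 FPKM in the double mutants and did not pass (limma adjusted p = 0.476). Atoh1 and Slc6a4 were under the minimum for the test.

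Among transcription factors of bulb interneurons, Zic1 lay near the middle of the list. Of 17 tested factors, 12 fell, 3 rose and 2 did not pass, where 36.5% of all tested genes were called lower and 28.8% higher. The median was -0.80, beside -0.83 for Zic1. Meis2, Pbx3 and Dlx5, homeodomain factors of interneuron differentiation, fell, with changes of -1.73, -1.51 and -1.37. Etv1, an ETS factor of granule and periglomerular cells, measured 20.06 ± 1.34 and 35.27 ± 0.66 FPKM (log2 fold change -0.80). Pax6 and Nr2f1 did not pass, with changes of -0.05 and -0.01, and Prox1, Nr2f2 and Gsx2 rose by 1.18, 1.18 and 1.41. Their means were 0.77, 7.66 and 0.1 FPKM in the wild type and 2.38, 17.96 and 1.1 FPKM in the double mutants. Gsx2 reached the minimum for the test only through its double mutant libraries. The scale used understates changes of low genes, so the values of Prox1 and Gsx2 cannot be ranked against that of Nr2f2. Genes of the inhibitory transmitter fell in the same libraries, with Gad1 at -1.25, Slc32a1 at -1.18 and Gad2 at -0.70. Their summed level was 265 to 311 FPKM in the double mutants and 645 to 676 FPKM in the wild type. The part of a change in interneuron number in the Zic values was not tested.

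Markers of 6 other kinds of cell in the dissected bulb had medians above 0, and those of migrating neuroblasts a median below 0. The counts stand beside 28.8% of all tested genes called higher and 36.5% called lower. All 10 meningeal and fibroblast markers rose, with a median of 0.92 and a summed level of 296 to 316 FPKM in the double mutants and 147 to 180 FPKM in the wild type. The collagen genes Col3a1 and Col1a2 rose by 1.14 and 0.99, the growth factor gene Igf2 by 0.98, Aldh1a2, an enzyme of retinoic acid synthesis, by 0.83, and Foxc1, a factor of the meninges and of mural cells that was chosen after its values were seen, by 0.87. Of 8 mural cell markers, 6 rose and 2 did not pass (median 0.33, summed level 235 to 254 against 131 to 140 FPKM), with Vtn, Tbx18 and the receptor gene Pdgfrb up by 0.96, 0.90 and 0.83. Of the mural markers Abcc9 passed under upper quartile and trimmed mean scaling (0.25 and 0.23), and Cspg4 (0.11, limma adjusted p = 0.262) and the cortical marker Rorb (0.19, limma adjusted p = 0.0577) did not pass under quantile normalization. All 4 endothelial, all 4 astrocyte, all 4 mitral and tufted cell and all 4 tested cortical markers also rose, with medians of 0.54, 0.73, 0.83 and 0.57. Their summed levels were 114 to 136, 891 to 927, 329 to 351 and 23.9 to 25.1 FPKM in the double mutants, against 63.6 to 69.1, 615 to 668, 223 to 232 and 15.9 to 16.7 FPKM in the wild type. The endothelial junction genes Cldn5 and Cdh5 rose by 1.03 and 0.73 and the VEGF receptor gene Flt1 by 0.35. The astrocyte channel genes Aqp4 and Gja1 rose by 1.02 and 0.97, the transporter gene Slc1a3 by 0.48 and Aldoc by 0.26. Among mitral and tufted cell genes, Slc17a6, Eomes, Tbx21 and Cdhr1 rose by 0.90, 0.87, 0.79 and 0.43, and among cortical genes Fezf2, Neurod6 and Cux2 by 0.71, 0.63 and 0.52. Of 5 neuroblast markers 4 fell (median -0.60, summed level 298 to 336 against 387 to 422 FPKM). The doublecortin gene Dcx changed by -1.71, Cd24a by -0.61, Igfbpl1 by -0.60 and the tubulin gene Tubb3 by -0.17, or by -0.09 under upper quartile scaling, where it did not pass (limma adjusted p = 0.0994). None of the markers in these lists was at 0 in any library. The part of meningeal, mural or other cells in the level of any Zic gene was not tested.

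**Figure D4:**
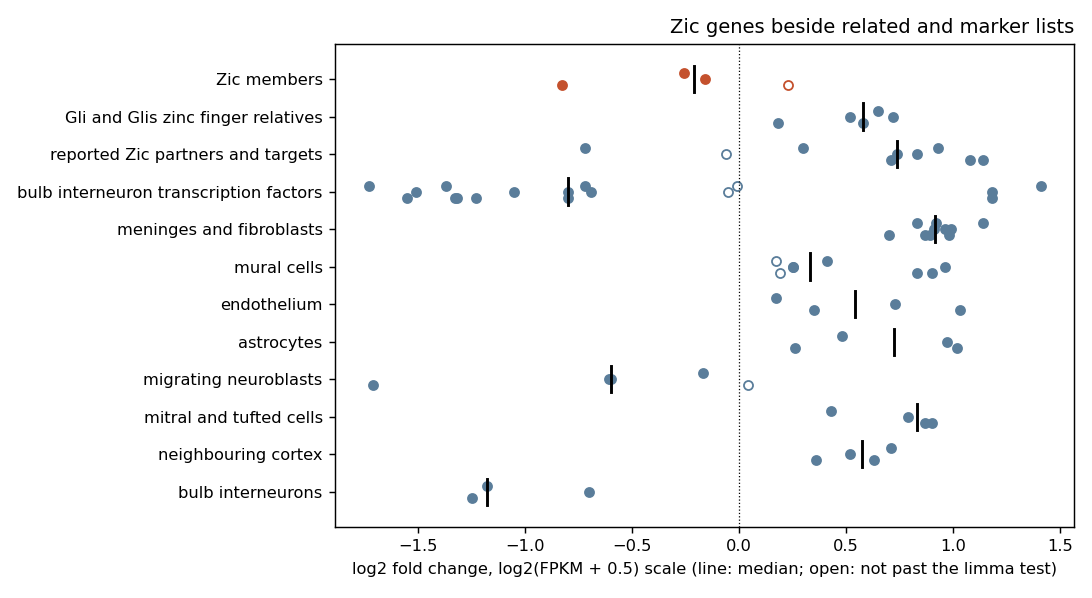
Log2 fold change of double mutant over wild type (horizontal axis) for each of the 4 Zic genes and each tested gene of the related and marker lists (rows), with a line at the median and open circles for genes that did not pass the limma test. Zic1 at -0.83 lies near the median of the bulb interneuron factors, -0.80, but these factors range from -1.73 to 1.41. The meningeal markers, with a median of 0.92, all lie above 0.

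The genes whose profile over the 8 libraries came closest to each member were ranked by the root mean square difference of log2(FPKM + 0.5), each taken relative to its wild-type mean. The minimum level was higher than for the test. All Zic genes were left out, as were symbols of predicted genes, clones, pseudogenes and olfactory receptors. For Zic1 these were the sialyltransferase gene St3gal1, Dlg4, which encodes the postsynaptic scaffold PSD-95, Lrp12, Tcerg1l and the interneuron factor Etv1, with differences of 0.038 to 0.047 log2 units. Dlg4 measured 79.56 FPKM in the double mutants and 141.12 FPKM in the wild type. For Zic2 they were Mllt3, Adnp, Mical3, Eftud2 and Kdm3b, at 0.015 to 0.021. Rxfp3, Hspbap1, Rnf166, Xpo1 and Alkbh4 came closest to Zic4, at 0.066 to 0.072, and Uhmk1, Slc27a3, Adora2b, Btbd7 and Rora closest to Zic5, at 0.084 to 0.088. The match was closest for Zic2 and loosest for Zic5, and the reason was not tested.

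Sequence shared with other genes was small for these members. Words of 50 bases from the annotated transcripts of Zic2 were found in 0 other transcripts. Of those of Zic1, 0.72% were found in transcripts of another gene, all on the opposite strand, among them 14 words of the overlap with Zic4. For Zic4 the share was 4.18%, nearly all in an opposite-strand annotation that the table does not list, and for Zic5 it was 7.48%, nearly all in a transcript that the table does not list. Words shared between members made up 0.25% of those of Zic1, 0.14% of those of Zic4 and 0 of those of Zic2 and Zic5.

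**Figure D5:**
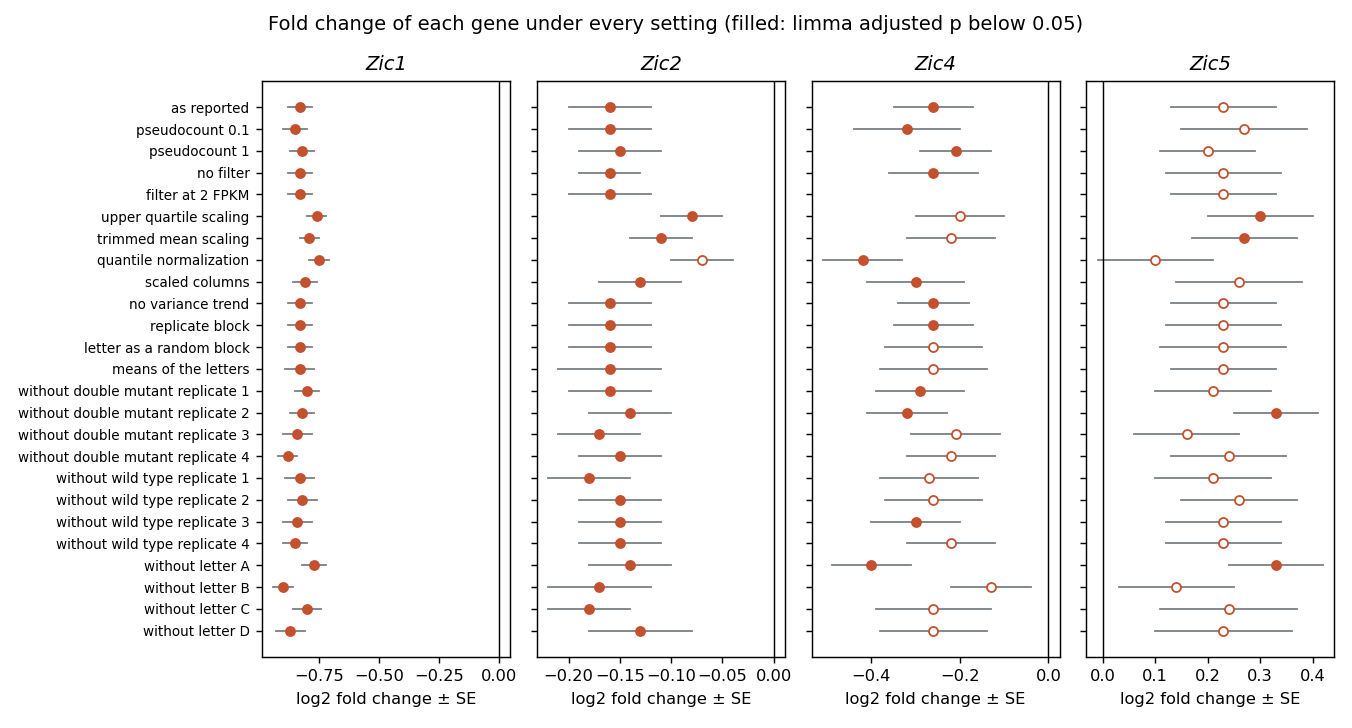
Log2 fold change with its SE (horizontal axes, which differ in range) of Zic1, Zic2, Zic4 and Zic5 under each setting (rows), filled where the limma adjusted p was below 0.05. Zic1 is filled in all rows and ranges from -0.90 to -0.75, Zic2 is open in 1 row, and Zic4 and Zic5 change between filled and open.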

How the data were processed

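FPKM values per gene and library were deposited by the authors. Per the submitters' processing notes, the build was GRCm38.p4 and the tools include Cufflinks 2.1.1 and TopHat, without roles. No source used here gives the annotation, strand setting or filters. The count-headed columns, also deposited, are a scaled signal: 98.2% to 98.5% of values under 300 were whole multiples (tolerance 0.02 steps) of a library's own step, which lay between 0.7363 and 1.2465. It served for depth, as total divided by step, for counting errors, which cover counting only, and for an alternative fit. No count model was used.

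The 14349 genes that averaged 0.5 FPKM or more were tested on log2(FPKM + 0.5). The fit used limma 3.58.1 (R 4.3.3) with group as sole term and a variance trend, with Benjamini-Hochberg adjustment of two-sided p-values over all tested genes. This scale understates changes of low genes. Ratios between members were tested with exact two-sided permutation tests in scipy 1.17.1. Alternatives were other pseudocounts, filters, scalings and designs, and leaving out libraries or letters.

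Named genes are the members, Sp8 and Sp9, from each list the 3 with the smallest p and the most abundant, the 2 nearest genes of the table on each side of each locus, and the 5 nearest profiles. Other genes of the lists were named after their values were seen. The members and lists were chosen with earlier results of these data known. Libraries of a letter differed by 1.18 to 1.44 times sampling noise (median chi-square), and libraries of a group with different letters by 1.56 to 2.35 times. Libraries of a letter were thus closer to each other. Each was counted as 1 library. For the members, fits with the letter as a block or on letter means are given where they change a call. For genes of the lists and neighbours these fits are not given, so their calls were not checked in this way.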

Additional observations from a re-analysis of the deposited data

Results flagged for a closer look

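Zic2 in the wild type had a library that stood away from the others. Replicate 1 measured 19.46 FPKM, and the other 3 measured 20.9 to 21.03 FPKM. The gap to its neighbour was 0.921 of the range of the group, above the 95% critical value for 4 samples. Chance flags about 1 group in 20, and 8 groups were examined. Without wild-type replicate 1 the change of Zic2 was -0.18 (limma adjusted p = 0.00169).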

How the results depend on the processing

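The fall of Zic1 kept its direction and its call under all 24 alternatives, from -0.90 to -0.75, and Zic2 under 23 of them. Quantile normalization gave -0.07 for Zic2, -0.42 for Zic4 and 0.10 for Zic5. The call of Zic4 was lost under upper quartile scaling (-0.20), trimmed mean scaling (-0.22), the letter as a random block (-0.26), the means of the letters (-0.26), and without letter B (-0.13), C (-0.26) or D (-0.26). With the filter at 2 FPKM it was not tested. Zic5 passed under upper quartile scaling (0.30), trimmed mean scaling (0.27) and without letter A (0.33). The cause of these changes was not tested. Leaving out single libraries gave -0.88 to -0.80 for Zic1, -0.18 to -0.14 for Zic2, -0.32 to -0.21 for Zic4 and 0.16 to 0.33 for Zic5. The number of members called was between 2 and 4 over all alternatives, and that of all genes between 7693 and 9669. The change of Zic1 relative to Zic4 was -0.37 without letter A and -0.78 without letter B, and that of Zic2 relative to Zic4 was 0.26 and -0.05, a turn in direction. Without a library or a letter the exact test cannot go below 0.0571 or 0.133, so these are values only. The share of higher calls among all genes was 44.1%, and 55.1% under upper quartile scaling.

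With the replicate number as a block, the changes were the same by construction, -0.83 for Zic1, -0.16 for Zic2, -0.26 for Zic4 and 0.23 for Zic5, and no call of a member changed. The block called 9189 genes against 9364. Libraries with the same number did not deviate together (correlations -0.05 to 0.01), so they share only a number. Depth limits Zic4 and Zic5 most.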
